A study of Mus musculus with 352 samples.

Results

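The genes described here carry fatty acids into the muscle fibre and burn them in its mitochondria. They were a list of 37 gene symbols, from lipoprotein lipase and the fatty acid carriers through the enzymes of β-oxidation to the nuclear receptors and coactivators that regulate them. All 37 were found by their Ensembl identifiers among the 14413 genes of the deposited table, and 35 of them were among the 9862 genes whose mean reached 1 FPKM (fragments scaled to exon length and library size), the genes on which tests were run. Cpt1b and Acot1 fell below that mean and are reported from a fit of all 14413 genes. The rule that picks the genes uses symbols alone, but the list was drawn up with earlier results of these data known.

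Tibialis anterior, a fast muscle of the lower leg, was taken whole from 352 C57BL/6 mice at 6 zeitgeber times (ZT), 4 h apart. KO mice were Bmal1(stopFL/stopFL) without Cre, a stop cassette that blocks the clock gene Bmal1 in the whole body. Mu-RE mice carried the same Bmal1(stopFL/stopFL) alleles with Hsa-Cre, driven by a skeletal muscle actin promoter, which restores Bmal1 in skeletal muscle. Br-RE mice carried them with Syt10-Cre, which restores it in the brain, and RE-RE mice carried both Cre transgenes. Wild-type (WT) mice had neither the cassette nor Cre. At 10 to 12 weeks, called 10 weeks here, there were 25 Mu-RE, 23 KO, 24 RE-RE, 23 Br-RE and 23 WT mice, and at 26 weeks 24 Mu-RE, 24 KO, 24 RE-RE, 22 Br-RE and 22 WT mice, all fed ad libitum (ALF). Time-restricted feeding (TRF) was given to 23 Mu-RE, 23 KO and 24 WT mice of 26 weeks and to 24 old wild-type mice of 85 to 116 weeks, and another 24 old mice were on ALF. The labels used here do not give the hours of feeding.

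Muscle takes up fatty acids that lipoprotein lipase frees from circulating triglyceride, activates them to acyl-CoA, and passes them into mitochondria as carnitine esters. Malonyl-CoA blocks that entry, and inside the mitochondrion a repeating cycle of dehydrogenation, hydration, a further dehydrogenation and thiolysis shortens the chain, handing electrons to the respiratory chain through the electron transfer flavoprotein. The receptors PPARα and PPARδ and the coactivators PGC-1α and PGC-1β raise transcription of many of these genes in fasting and exercise. BMAL1, the product of Bmal1 (symbol Arntl), binds E-box sequences and drives the daily clock in nearly every tissue.

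Promoters are shown for 5 genes, picked for different reasons. Hadha and Hadhb moved together in level and share a divergent promoter, and Acadm moved in the same direction. Slc27a1 held the one E-box, and of its listed starts the one with that E-box is shown. Cd36 is the main fatty acid translocase at the cell surface. Sequences are from RefSeq on GRCm38.p6, run 5′ to 3′ on the strand named, and stop before the first annotated exon. Capitals mark an E-box or the element AGGTCA, the core bound by PPARs and related receptors, which reads TGACCT on the other strand.
Hadha and Hadhb, the bases between the 2 genes, chr5:30155163-30155247, plus strand: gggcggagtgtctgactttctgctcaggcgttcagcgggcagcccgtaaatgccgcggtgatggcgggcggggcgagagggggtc
Acadm, chr3:153944644-153944893, minus strand: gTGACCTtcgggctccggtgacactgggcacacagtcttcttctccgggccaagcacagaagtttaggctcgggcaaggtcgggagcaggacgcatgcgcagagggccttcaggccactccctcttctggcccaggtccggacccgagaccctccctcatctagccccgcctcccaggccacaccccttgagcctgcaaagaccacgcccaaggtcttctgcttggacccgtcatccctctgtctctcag
Cd36, chr5:17835897-17836146, minus strand: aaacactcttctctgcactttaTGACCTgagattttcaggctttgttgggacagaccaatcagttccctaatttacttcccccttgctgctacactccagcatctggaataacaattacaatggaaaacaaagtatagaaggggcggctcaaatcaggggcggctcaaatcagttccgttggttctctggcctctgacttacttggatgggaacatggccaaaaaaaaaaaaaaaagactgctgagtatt
Slc27a1, an alternative start, chr8:71570344-71570593, plus strand: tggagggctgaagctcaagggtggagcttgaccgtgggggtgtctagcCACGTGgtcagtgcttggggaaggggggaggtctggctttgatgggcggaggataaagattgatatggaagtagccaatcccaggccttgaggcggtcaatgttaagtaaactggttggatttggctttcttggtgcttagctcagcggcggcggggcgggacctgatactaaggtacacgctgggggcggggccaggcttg

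The RefSeq promoter table, which runs from 250 bases before to 50 after each start, held 32 promoters of 29 of the genes. Motifs were searched on both strands. The E-box CACGTG lay in 1 of the 29 genes, Slc27a1, 202 bases before that start, and in 7.15% of all 32851 promoters in the table. AGGTCA lay in 5 genes (Acacb, Acadm, Acadvl, Cd36 and Echs1), 249 bases before the start in Acadm and 228 in Cd36, and in 16.3% of all promoters. The DR1 element, AGGTCA repeated after 1 base (0.04% of all promoters), the element TCAAGGTCA (0.423%) and the D-box TTATGTAA (0.938%) were found in 0 of the 29, and the first and second of these contain AGGTCA. These letters describe the window only.

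Estimated depth, read from the size of 1 read in the deposited values, had a median of 22.6 M reads and ran from 14.8 to 47.8 M, and 1 FPKM then corresponds to 93.8 reads for a gene of median exon length. Arntl itself had reads in KO and Br-RE muscle (log2 FPKM of 2.78 to 4.31 in 115 libraries, against 0.13 to 5.14 in the 237 Mu-RE, RE-RE, WT and old libraries), so its total does not check the labels. Ces1d, a carboxylesterase gene, was at 0.10 or below in those 115 libraries and at 1.28 or above in the 237 others. This split put 0 libraries against their labels. Ces1d was taken from an earlier analysis of these data, so its split is not an independent check of the labels. Dbp, also examined, overlapped, reaching 1.193 in the 115 libraries and falling to -0.024 in the 237 others. Its medians there were 0.44 and 3.268. The muscle fibre marker Acta1 stood at 6208 FPKM or more in every library. Of the 6 fat cell markers Cfd had a median of 7.95 FPKM (highest 73.9) and Adipoq of 1.05 (highest 10.1). The medians of Plin1, Cidec, Retn and Lep were 0.39, 0.54, 0.46 and 0.04. Summed, these 6 markers reached 99.0 FPKM in a library of KO mice on TRF, so fat cell RNA varied between libraries. In bulk muscle, fewer cells of a type and less RNA per cell cannot be told apart. One 10-week WT library (mouse 1, ZT 0) stood apart in heat shock genes in an earlier analysis, and results that it decides are given without it.

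All values below are log2 FPKM, and a difference is the first group minus the second in the mean over the day. Differences were tested by limma's moderated two-sided test, adjusted over all 9862 genes and called at 0.05. Br-RE and RE-RE values had been shifted gene by gene as a set of their own, so these 2 genotypes are compared in level only with each other. Several comparisons share animals: KO mice stand in the comparisons with WT and with Mu-RE, and WT mice of 26 weeks on ALF stand in those by genotype, age and feeding.

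In level the genes spanned a wide range. Fabp3, the fatty acid binding protein of heart and muscle cytosol, was the most abundant at a geometric mean of 735 FPKM, above 99.6% of all genes in the table. Acadl (174 FPKM), Etfb (148), Etfa (127), Acaa2 (119) and Acadm (115) came next, so that dehydrogenases, a thiolase and both flavoprotein subunits stood among the most abundant transcripts of the muscle. The regulators were far lower, at 5.93 FPKM for Ppargc1a, 5.18 for Ppard, 2.17 for Ppargc1b and 1.68 for Ppara. Cpt1b, the muscle form of the entry enzyme carnitine palmitoyltransferase, stood at 0.86 FPKM, and 81.4% of its exon bases are shared on the same strand with Gm44502, so its low value is uncertain. Etfb shares 53.0% of its exon bases with Gm45233, Acadvl shares 42.9% with Dvl2 on the other strand, and Acot1 and Acot2 are near-identical copies whose reads could be split between them.

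Muscle without Bmal1 held more transcript of much of this pathway. At 10 weeks 18 of the 35 genes were higher and 5 lower in KO than WT muscle, and at 26 weeks 20 were higher and 2 lower. Among all genes tested 41.8% were called at 10 weeks (20.3% higher, 21.6% lower) and 46.3% at 26 weeks (24.4% higher, 22% lower). The median difference of the 35 genes was 0.18 at 10 weeks and 0.28 at 26 weeks, and that of all genes was 0.00 at both ages. Of the 23 genes called at 10 weeks 17 were called in the same direction at 26 weeks, 73.9% of the first list and 77.3% of the second, and all 17 were higher in KO. For all genes the corresponding shares were 60% and 54.1%.

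Restoring Bmal1 in muscle went with lower levels. In Mu-RE muscle 2 genes were higher and 17 lower than in KO muscle at 10 weeks, with 34.6% of all genes called (17.2% lower), and 2 were higher and 12 lower at 26 weeks, with 33.9% called (16.6% lower). In RE-RE muscle, set against Br-RE muscle, 2 were higher and 13 lower at 10 weeks (32.2% of all genes called, 17.4% lower) and 2 higher and 11 lower at 26 weeks (35.3% called, 18.9% lower). RE-RE and Br-RE are animals that share no library with KO and WT. Genes higher in KO than WT and lower in RE-RE than Br-RE at both ages numbered 9: Fabp3, Acsl1, Cpt2, Acadm, Hadha, Hadhb, Eci1, Etfa and Etfdh. The share of all genes with this pattern was not counted, so the 9 are a list and not a result about the pathway. At 10 weeks the KO calls of Acsl1 (adjusted p = 0.135 and 0.193) and Etfdh (0.0748 and 0.0775) were lost without animal 1 or animal 2 of each time point. At 10 weeks 13 of the 23 genes called between KO and WT were called in the opposite direction between RE-RE and Br-RE (56.5% of the first list, 86.7% of the second), where all genes gave 50.9% and 66.2%. At 26 weeks it was 12 of the 22 (54.5% and 92.3%), where all genes gave 53.1% and 69.7%. Whatever the comparison of genotypes, the ranges of the mice overlapped for all 35 genes, and groups without overlap were seen in 0.598% to 1.16% of all genes.

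**Figure D1:**
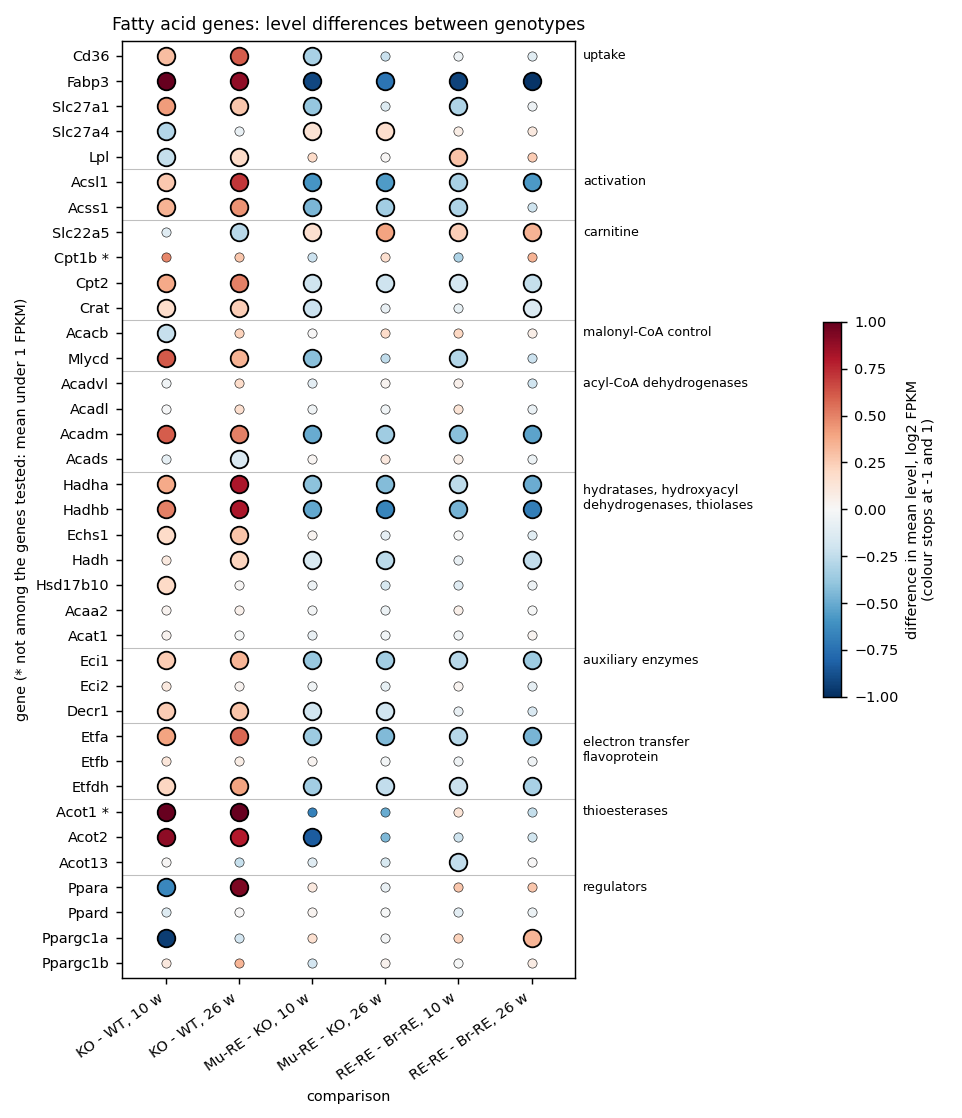
Differences in mean log2 FPKM for the 37 genes (rows, grouped by role) in 6 comparisons of genotype (columns, first genotype minus second). Red is higher and blue lower in the first genotype, large rimmed points are called at an adjusted p of 0.05 and the colour stops at 1 and -1. The KO columns hold 18 and 20 higher genes among the 35 tested, besides Acot1 from the fit of all genes, and the Mu-RE and RE-RE columns are mostly blue.

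Fabp3 moved most among the genes of uptake. Its level ran from 8.98 to 10.93 with a median of 10.10 in KO muscle and from 8.07 to 9.74 with a median of 8.96 in WT muscle at 10 weeks. Most KO mice lay above every WT mouse, and the rest overlapped. The difference was 1.17 (SE 0.15, adjusted p = 3.04e-08), a 2.25-fold higher level. At 26 weeks it ran from 8.98 to 11.47 (median 10.05) in KO and from 7.91 to 11.07 (median 9.21) in WT muscle, with a difference of 0.89 (SE 0.19, adjusted p = 0.000108). Mu-RE muscle was lower than KO muscle by 0.91 at 10 weeks (difference -0.91, SE 0.16, adjusted p = 6.28e-06) and by 0.73 at 26 weeks (-0.73, SE 0.17, adjusted p = 0.000739). In RE-RE muscle it ran from 7.65 to 9.72 (median 8.99) and in Br-RE muscle from 9.36 to 10.13 (median 9.77) at 10 weeks, so that few RE-RE mice reached the Br-RE range. That difference was -0.93 (SE 0.10, adjusted p = 1.52e-10), and at 26 weeks it was -0.98 (SE 0.12, adjusted p = 5.89e-09).

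Cd36, which takes fatty acids across the cell membrane, ran from 6.24 to 7.43 (median 6.91) in KO and from 5.92 to 7.14 (median 6.60) in WT muscle at 10 weeks, a difference of 0.31 (SE 0.08, adjusted p = 0.000902). At 26 weeks it ran from 6.49 to 7.99 (median 6.94) in KO and from 5.49 to 7.81 (median 6.29) in WT muscle, a difference of 0.61 (SE 0.12, adjusted p = 5.5e-05). It was lower in Mu-RE than KO muscle at 10 weeks (-0.32, SE 0.07, adjusted p = 0.000556), and at 26 weeks the difference of -0.22 was not called (SE 0.10, adjusted p = 0.0861). Between RE-RE and Br-RE no call was made for it, at -0.05 (SE 0.08, adjusted p = 0.685) and -0.12 (SE 0.10, adjusted p = 0.398). The transporter gene Slc27a1 (FATP1) was higher in KO than WT at both ages, by 0.42 (SE 0.07) and 0.28 (SE 0.08). Its relative Slc27a4 (FATP4) went the other way at 10 weeks, at -0.29 (SE 0.04, adjusted p = 9.4e-07), and was higher in Mu-RE than KO at both ages, by 0.15 and 0.17. Lpl, the lipase of the capillary wall, was lower in KO than WT at 10 weeks (-0.23, SE 0.08) and higher at 26 weeks (0.19, SE 0.08). The 10-week call of Lpl was lost without animal 3 of each time point (adjusted p = 0.0795), and that at 26 weeks without any 1 of the 4 animals (adjusted p = 0.0702 to 0.209), with a gene-length term (0.0577) and with the spread of all 15 groups (0.0963).

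Of the activating enzymes, Acsl1 makes long-chain acyl-CoA and Acss1 activates acetate in mitochondria. Acsl1 ran from 5.22 to 6.39 (median 5.75) in KO and from 4.17 to 6.05 (median 5.04) in WT muscle at 26 weeks, and most KO mice lay above most WT mice. It was higher in KO by 0.72 (SE 0.11, adjusted p = 7.37e-07) at 26 weeks and by 0.27 (SE 0.10, adjusted p = 0.0255) at 10 weeks. It was lower in Mu-RE than KO at both ages, by differences of -0.59 (SE 0.07) and -0.57 (SE 0.09), and lower in RE-RE than Br-RE, at -0.33 (SE 0.11) and -0.57 (SE 0.12). Acss1 was higher in KO by 0.34 (SE 0.11) and 0.45 (SE 0.13), and called lower in Mu-RE at both ages and in RE-RE at 10 weeks.

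The carnitine genes did not move as one. Cpt2, the inner carnitine palmitoyltransferase, ran from 5.10 to 6.09 (median 5.75) in KO and from 4.74 to 5.56 (median 5.21) in WT muscle at 26 weeks, a difference of 0.50 (SE 0.06, adjusted p = 6.25e-09), and was 0.38 higher (SE 0.06) at 10 weeks. Slc22a5, which encodes the carnitine transporter OCTN2, ran from 1.32 to 2.26 (median 1.78) in KO and from 1.59 to 2.74 (median 2.08) in WT muscle at 26 weeks. It was lower in KO by a difference of -0.28 (SE 0.08, adjusted p = 0.00573), the opposite of Cpt2, with wide overlap, and the call was lost without animal 3 (adjusted p = 0.0852). Restoration went with higher Slc22a5, in Mu-RE over KO by 0.16 (SE 0.06) and 0.40 (SE 0.07, adjusted p = 3.91e-06), and in RE-RE over Br-RE by 0.25 (SE 0.05) and 0.35 (SE 0.06, adjusted p = 9.88e-06) at 10 and 26 weeks. It was the 1 member higher in RE-RE at both ages. Cpt1b gave 0.48 (SE 0.22, adjusted p = 0.0828) and 0.28 (SE 0.21, adjusted p = 0.3) between KO and WT in the fit of all genes, with no call in any of the 6 comparisons. Crat, a carnitine acetyltransferase, was 0.18 and 0.25 higher in KO.

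**Figure D2:**
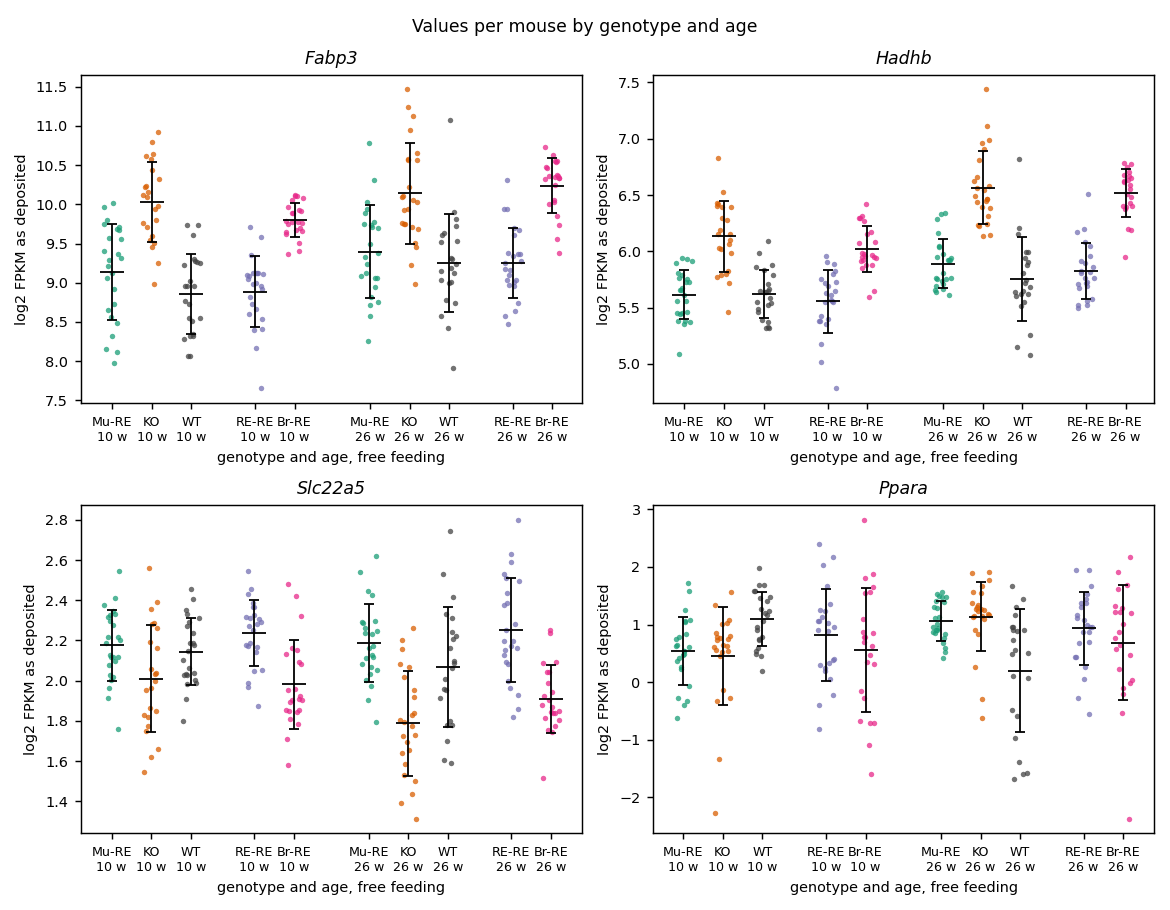
Log2 FPKM per mouse (points) with mean and SD (bars) for Fabp3, Hadhb, Slc22a5 and Ppara by genotype at 10 and 26 weeks on ALF. Fabp3 and Hadhb are high in KO and Br-RE mice, Slc22a5 is low in them at 26 weeks, and Ppara spreads widely in KO, Br-RE and 26-week WT mice. Br-RE and RE-RE levels are shifted as a set and are to be read only against each other.

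Malonyl-CoA is made by Acacb at the mitochondrial surface and removed by Mlycd. Mlycd ran from 4.48 to 5.80 (median 5.33) in KO and from 3.91 to 5.40 (median 4.55) in WT muscle at 10 weeks, a difference of 0.61 (SE 0.09, adjusted p = 1.3e-07), and was 0.35 higher (SE 0.11) at 26 weeks. It was lower in Mu-RE than KO (-0.42, SE 0.08) and in RE-RE than Br-RE (-0.29, SE 0.08) at 10 weeks, and neither difference was called at 26 weeks. Acacb was slightly lower in KO at 10 weeks (-0.23, SE 0.09, adjusted p = 0.0286), a call that was lost without animal 1, 3 or 4 of each time point (adjusted p = 0.0517, 0.16 and 0.086) and with the spread taken from all 15 groups (0.0724), and was not called in the other comparisons of genotype.

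Among the acyl-CoA dehydrogenases, which open each turn of the cycle, the medium-chain gene moved and the others hardly did. Acadm ran from 6.51 to 7.51 (median 7.16) in KO and from 6.23 to 6.94 (median 6.46) in WT muscle at 10 weeks, and the KO median lay above the highest WT mouse. It was 0.61 higher in KO at 10 weeks (SE 0.07, adjusted p = 1.86e-09) and 0.50 at 26 weeks (SE 0.09, adjusted p = 7.42e-06). It was lower in Mu-RE than KO (-0.50, SE 0.06, and -0.36, SE 0.06) and in RE-RE than Br-RE (-0.42, SE 0.07, and -0.53, SE 0.07). Acadl (long-chain) and Acadvl (very long-chain) were called in none of the 6 comparisons, with differences between KO and WT of -0.01 (SE 0.07) and 0.17 (SE 0.07) for Acadl and -0.03 (SE 0.09) and 0.19 (SE 0.12) for Acadvl at 10 and 26 weeks. Acads, the short-chain gene, differed by -0.15 (SE 0.05) between KO and WT at 26 weeks, a call that was lost with animal number as a block (adjusted p = 0.0564), with the spread of all 15 groups (0.0701) and without animal 2 (0.139) or 4 (0.106).

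Hadha and Hadhb encode the α and β subunits of the mitochondrial trifunctional protein, which hydrates, oxidises and cleaves long-chain intermediates, and lie head to head with 272 bases between their RefSeq starts. Hadhb ran from 6.14 to 7.44 (median 6.48) in KO and from 5.08 to 6.82 (median 5.70) in WT muscle at 26 weeks. Hadha ran from 5.81 to 6.69 (median 6.42) in KO and from 4.87 to 5.93 (median 5.69) in WT muscle at that age. Nearly all KO mice lay above the WT range of Hadha, while more mice overlapped for Hadhb. The differences were 0.81 for Hadhb (SE 0.10, adjusted p = 1.56e-08) and 0.82 for Hadha (SE 0.08, adjusted p = 8.85e-12) at 26 weeks, and 0.51 (SE 0.08) and 0.38 (SE 0.07) at 10 weeks.

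Both subunits were lower where Bmal1 was restored in muscle. Hadhb differed by -0.52 (SE 0.07) and -0.66 (SE 0.08) between Mu-RE and KO, and by -0.48 (SE 0.07) and -0.69 (SE 0.07, adjusted p = 5.96e-11) between RE-RE and Br-RE. Hadha differed by -0.41 (SE 0.07) and -0.43 (SE 0.06), and by -0.26 (SE 0.08) and -0.50 (SE 0.08). The other hydratase, hydroxyacyl dehydrogenase and thiolase genes moved less. Echs1, the short-chain hydratase, was 0.20 and 0.28 higher in KO, Hsd17b10 was 0.20 higher at 10 weeks and Hadh 0.22 higher at 26 weeks. The thiolase genes Acaa2 and Acat1 stayed uncalled in all 6, with differences of 0.04 (SE 0.07) and 0.05 (SE 0.09) for Acaa2 between KO and WT.

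Eci1, an isomerase that handles unsaturated chains, was 0.25 (SE 0.06) and 0.34 (SE 0.07) higher in KO, and Decr1, a reductase for the same chains, 0.25 (SE 0.07) and 0.28 (SE 0.09). Eci2, a further isomerase, was not called. Etfa, the α subunit of the electron transfer flavoprotein, ran from 6.85 to 8.16 (median 7.28) in KO and from 6.29 to 7.65 (median 6.76) in WT muscle at 26 weeks, a difference of 0.57 (SE 0.10, adjusted p = 7.43e-06), and was 0.40 higher (SE 0.08) at 10 weeks. Its partner Etfb differed by 0.12 (SE 0.07, adjusted p = 0.164) and 0.07 (SE 0.08, adjusted p = 0.492). Etfdh, which passes the electrons on to ubiquinone, was 0.22 (SE 0.07) and 0.41 (SE 0.09) higher in KO.

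The thioesterase Acot2, which releases free fatty acid from acyl-CoA in mitochondria, varied widely between mice, from 1.99 to 4.61 (median 3.52) in KO and from 0.94 to 4.87 (median 2.39) in WT muscle at 10 weeks. It was 0.89 higher in KO at 10 weeks (SE 0.20, adjusted p = 0.000277) and 0.79 at 26 weeks (SE 0.18, adjusted p = 0.000286). Acot1, its cytosolic copy, gave 1.43 (SE 0.26) and 1.46 (SE 0.27) in the fit of all genes, from means of 0.69 FPKM in KO at both ages against 0.26 and 0.25 FPKM in WT. Acot13 was called only in RE-RE against Br-RE at 10 weeks among these 6 (-0.25, SE 0.06).

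The regulators did not follow the enzymes. Ppargc1a, which encodes PGC-1α, ran from 1.46 to 2.87 (median 2.20) in KO and from 2.56 to 4.30 (median 3.01) in WT muscle at 10 weeks. Most KO mice lay below the lowest WT mouse, while the enzyme genes above were higher in the same muscles. The difference was -0.95 (SE 0.12, adjusted p = 7.1e-09), and at 26 weeks it was -0.18 and not called (SE 0.18, adjusted p = 0.426). It was called higher in RE-RE than Br-RE at 26 weeks (0.34, SE 0.10, adjusted p = 0.0054) and not at 10 weeks (0.23, SE 0.11, adjusted p = 0.102), and Mu-RE did not differ detectably from KO (0.16, SE 0.10, and -0.02, SE 0.16).

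Ppara changed direction with age. It ran from -2.28 to 1.57 (median 0.64) in KO and from 0.20 to 1.98 (median 1.17) in WT muscle at 10 weeks. At 26 weeks it ran from -0.62 to 1.90 (median 1.24) in KO and from -1.69 to 1.67 (median 0.53) in WT muscle. The spread of single mice was as wide as the shift, and the group means were 0.45 in KO and 1.10 in WT at 10 weeks, and 1.14 and 0.20 at 26 weeks. Its differences were -0.65 (SE 0.21, adjusted p = 0.00982) and 0.94 (SE 0.26, adjusted p = 0.0024), and without animal 3 of each time point the 10-week call was lost (adjusted p = 0.0876). No call was made for it in Mu-RE against KO (0.11, SE 0.21, and -0.08, SE 0.14) or RE-RE against Br-RE (0.28, SE 0.20, and 0.28, SE 0.22). Ppard differed by -0.13 (SE 0.07, adjusted p = 0.141) and 0.01 (SE 0.09, adjusted p = 0.969) between KO and WT, and Ppargc1b by 0.10 (SE 0.11, adjusted p = 0.466) and 0.34 (SE 0.15, adjusted p = 0.0593). Neither was called in the other 4 comparisons.

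The effect of KO itself was set against age in a test of its difference, in which 18.8% of all genes and 7 of the 35 were called. For all 7, KO minus WT was greater at 26 than at 10 weeks: Ppara by 1.59 (SE 0.33, adjusted p = 0.000231), Ppargc1a by 0.76 (SE 0.23), Acacb by 0.47 (SE 0.15), Acsl1 by 0.45 (SE 0.15), Hadha by 0.43 (SE 0.11), Lpl by 0.42 (SE 0.11) and Slc27a4 by 0.22 (SE 0.08). With a term for each library's slope of value on gene length, the calls of Acsl1 (0.32, adjusted p = 0.0807), Acacb (0.29, adjusted p = 0.0595) and Slc27a4 (0.17, adjusted p = 0.0835) were lost. Leaving out 1 animal of each time point gave 3 to 5 calls. In WT mice Ppara (-0.89), Ppargc1a (-0.46), Acacb (-0.30) and Slc27a4 (-0.25) were called lower at 26 than at 10 weeks. Of these, only Slc27a4 kept that call with the length term. The test takes KO minus WT, so it does not show that a gene rose in KO. The effect of restoring Bmal1 in muscle was likewise compared with and without Bmal1 in brain, and 0 of the 35 were called at 10 weeks (0.0203% of all genes) and 0 at 26 weeks (0%). At an unadjusted p under 0.05 there were 2 and 1 of the 35.

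Genes around the pathway, from lists chosen with earlier results of these data known, gave mixed counts. Of 8 tested target genes of fasting and PPARs, 5 were higher and 2 lower in KO than WT at 10 weeks, and 2 were higher and 2 lower at 26 weeks. Plin5, which coats the lipid droplets that touch mitochondria, was higher in KO by 1.24 (SE 0.15) and 1.40 (SE 0.17), lower in Mu-RE than KO by differences of -1.22 (SE 0.16) and -1.03 (SE 0.20), and lower in RE-RE than Br-RE at -1.13 (SE 0.13) and -1.03 (SE 0.16). Angptl4, a secreted inhibitor of lipoprotein lipase, was 2.42 higher in KO at 10 weeks (SE 0.45), and Pdk4, which shuts glucose carbon out of the mitochondrion, 0.96 (SE 0.38). Of 9 genes of triglyceride release and storage, 4 were higher and 3 lower in KO at 10 weeks and 3 and 3 at 26 weeks, led by Dgat2, which makes triglyceride (-1.41, SE 0.10, and -0.66, SE 0.11), and at 26 weeks by the lipase gene Pnpla2 (0.98, SE 0.12). Of 14 partner receptors and coregulators, 2 were higher and 6 lower at 10 weeks, Esrrg (-0.77, SE 0.14) and Nrip1 (-0.77, SE 0.07) among them, and 4 were higher and 2 lower at 26 weeks. Peroxisomal oxidation gave 5 higher and 1 lower of 13 at 10 weeks and 2 and 0 at 26 weeks, and 16 other mitochondrial genes of fatty acid oxidation gave 4 and 3, then 6 and 3.

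Markers of fibres and of other cells also moved. Of 6 tested markers of slow and oxidative fibres, 0 were higher and 3 lower in KO than WT at 10 weeks, Myh2 at -1.25 (SE 0.22) among them, and 3 were higher and 0 lower at 26 weeks, Myh2 at 1.02 (SE 0.20). Summed, these 8 listed markers ran from 65.2 to 393 FPKM (median 147) in KO and from 126 to 790 (median 263) in WT muscle at 10 weeks, and from 209 to 795 (median 436) in KO and from 128 to 691 (median 218) in WT at 26 weeks. These sums are mostly Myh2, whose median over all libraries was 214 FPKM, against 37.9 for Myl3 and 5.44 or less for the rest. The 17 genes higher in KO at both ages were thus higher at 10 weeks beside lower oxidative fibre markers and at 26 weeks beside higher ones, and the part of fibre type in these differences was not tested. Of 6 endothelial markers 5 were higher in KO at 10 weeks and 6 at 26 weeks, summing to 60.8 to 115 FPKM (median 86.1) in KO and 39.4 to 82.1 (median 60.9) in WT at 10 weeks. Muscle fibre markers gave 5 higher of 6 at 10 weeks and 2 at 26 weeks, macrophage markers 3 lower of 3 and then 2, fibroblast markers 1 lower of 4 and then 2, and the 1 fat cell marker tested, Cfd, was called higher at 26 weeks. Cd36 and Lpl are also expressed by other cells of muscle than its fibres, and the part of these markers in their differences was not tested. Where Bmal1 was restored in muscle, 4 of 6 muscle fibre markers were lower at 10 weeks and 1 at 26 weeks, both in Mu-RE than KO and in RE-RE than Br-RE, with Mb at -0.39 (SE 0.10) and -0.85 (SE 0.11) in Mu-RE and at -0.50 (SE 0.08) and -0.87 (SE 0.09) in RE-RE. Markers of slow and oxidative fibres gave 2 higher of 6 at each age in Mu-RE, and 4 and then 2 in RE-RE, with Tnnc1 at 0.76 (SE 0.23) and 1.26 (SE 0.23) in RE-RE. Endothelial markers gave 4 lower of 6 in Mu-RE than KO at 10 weeks, with Kdr at -0.38 (SE 0.09), and 0 called at 26 weeks, and 0 were called in RE-RE against Br-RE at either age. The part of these markers in the restoration differences was not tested.

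Old wild-type mice were set against WT mice of 26 weeks. In old mice 3 of the 35 were higher and 1 lower than in WT mice of 26 weeks, where 24.2% of all genes were called. Acss1 ran from 1.42 to 4.23 (median 2.42) in old and from 1.16 to 3.29 (median 1.90) in WT muscle, a difference of 0.51 (SE 0.14, adjusted p = 0.0055). Mlycd was 0.30 higher (SE 0.09, adjusted p = 0.0158), Slc27a1 was 0.27 higher (SE 0.09, adjusted p = 0.0211) and Acot13 differed by -0.35 (SE 0.10, adjusted p = 0.00674). Each of these 4 calls was kept with the gene-length term, which called 8 genes in all, and lost without at least 1 animal of each time point, which left 1 to 4 calls. All 4 fibroblast markers tested were lower in old mice, with Col1a1 at -2.47 (SE 0.26), as were 1 endothelial marker and 1 of slow and oxidative fibres, while 2 muscle fibre markers were higher; their part in these differences was not tested. Of the regulators, Ppara gave 0.37 (SE 0.27, adjusted p = 0.313) and Ppargc1a -0.28 (SE 0.13, adjusted p = 0.103), with no call.

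Between 26 and 10 weeks in WT mice 7 genes were higher and 4 lower, with 37% of all genes called. Ppara, at -0.89 (SE 0.25, adjusted p = 0.00495), and Ppargc1a, at -0.46 (SE 0.15, adjusted p = 0.0123), were lower at 26 weeks. Acacb (-0.30) and Slc27a4 (-0.25) were lower too, while Acot13 (0.37), Hsd17b10 (0.34), Mlycd (0.28), Acat1 (0.24), Etfb (0.21), Acadm (0.20) and Eci2 (0.18) were higher. Of these 11 calls 7 were lost when a term for each library's slope of value on gene length was added, and with it Ppara stood at -0.46 (adjusted p = 0.227). Without WT mouse 1 the call of Acadm was lost (0.20, adjusted p = 0.0574). Endothelial markers moved in the same comparison, with 0 higher and 5 lower of 6, as did red blood cell markers, with 5 higher of 5.

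Time-restricted feeding was compared with free feeding in 4 backgrounds. In WT muscle 13 of the 35 genes were higher and 2 lower on TRF (41% of all genes called, 20.9% higher and 20.1% lower). Mu-RE muscle had 13 higher and 0 lower (16.9% called, 9.05% higher and 7.87% lower). KO muscle had 3 higher and 2 lower (14.2% called, 4.78% higher and 9.38% lower), about the share of all genes called. Old muscle had 0, where 0.142% of all genes were called. In old mice 2 of the 35 had an unadjusted p under 0.05. The median difference of the 35 genes was 0.13 in WT, 0.13 in Mu-RE, 0.07 in KO and 0.03 in old mice.

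**Figure D3:**
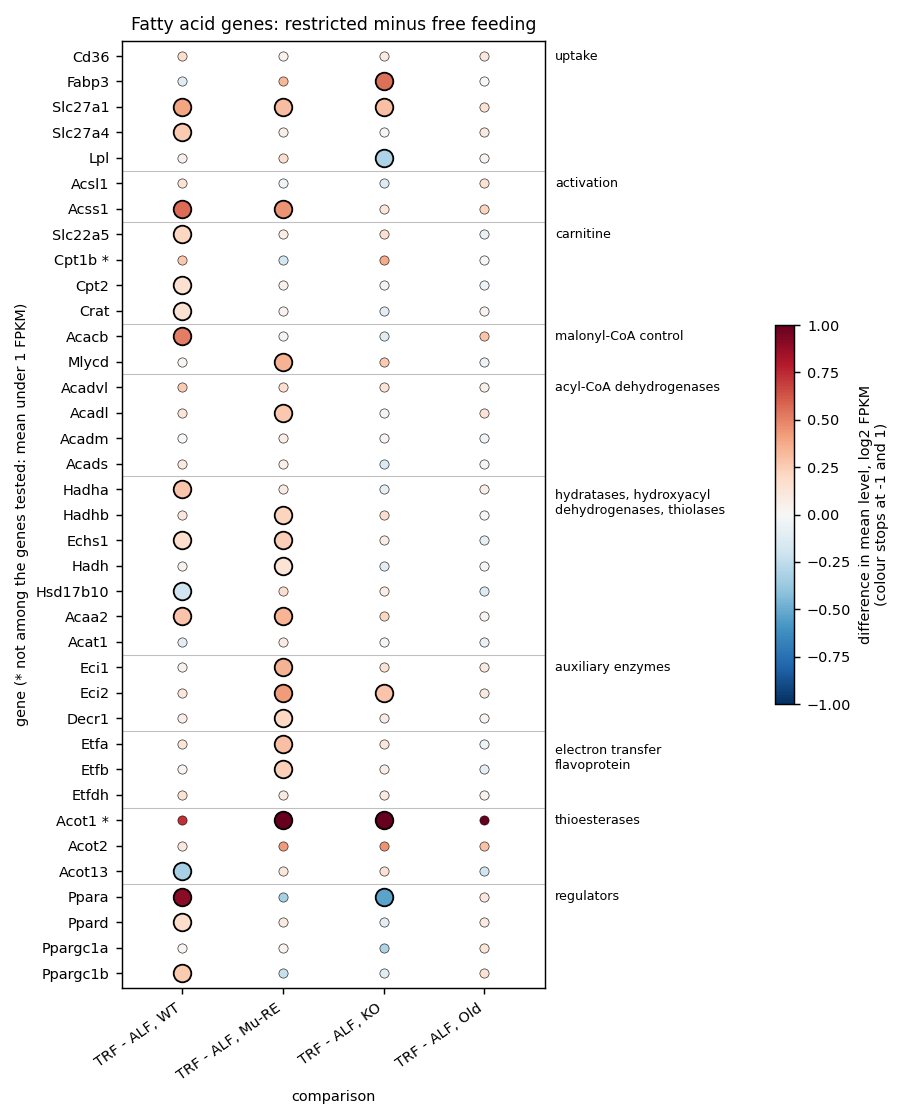
Differences in mean log2 FPKM, TRF minus ALF, for the 37 genes (rows, grouped by role) with 1 column each for WT, Mu-RE, KO and old mice. Red is higher and blue lower on TRF, and large rimmed points are called. WT and Mu-RE columns each hold 13 higher genes among the 35 tested, Acot1 is called in Mu-RE and KO in the fit of all genes, and the old column has no call.

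Acss1 showed the response to feeding in both WT and Mu-RE muscle. It ran from 2.00 to 3.40 (median 2.55) on TRF and from 1.16 to 3.29 (median 1.90) on ALF in WT muscle, with a difference of 0.56 (SE 0.12, adjusted p = 0.000364). In Mu-RE muscle it ran from 2.11 to 3.51 (median 2.42) on TRF and from 1.63 to 3.01 (median 1.95) on ALF, a difference of 0.45 (SE 0.09, adjusted p = 0.00121). In both genotypes the medians shifted while the ranges overlapped widely. Slc27a1 was called in 3 backgrounds, at 0.40 (SE 0.08) in WT, 0.31 (SE 0.09) in Mu-RE and 0.30 (SE 0.10) in KO. Acaa2, the thiolase that no genotype comparison called, was 0.28 higher in WT (SE 0.07, adjusted p = 0.0021) and 0.34 in Mu-RE (SE 0.07, adjusted p = 0.00217), with 0.21 in KO not called (SE 0.09, adjusted p = 0.0863).

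In WT muscle Acacb ran from 4.57 to 5.62 (median 5.31) on TRF and from 4.10 to 5.53 (median 4.74) on ALF, 0.51 higher (SE 0.09, adjusted p = 6.23e-05), and Hadha was 0.29 higher (SE 0.07, adjusted p = 0.00128). All 3 carnitine genes tested were higher, at 0.21 for Slc22a5, 0.16 for Cpt2 and 0.14 for Crat. Of the regulators 3 were called, Ppara at 0.90 (SE 0.28, adjusted p = 0.00932), Ppargc1b at 0.26 (SE 0.10, adjusted p = 0.0325) and Ppard at 0.19 (SE 0.06, adjusted p = 0.0131). Acot13 was lower, at -0.33 (SE 0.08, adjusted p = 0.0012), as was Hsd17b10, at -0.20. Cd36 gave 0.17 (SE 0.11, adjusted p = 0.217) and Cpt1b 0.27 (SE 0.20, adjusted p = 0.318). The oxidative fibre marker Myh2 was 0.86 higher on TRF in WT (SE 0.22), and 4 of 6 endothelial markers were higher; their part in these differences was not tested. With the gene-length term Ppara gave 0.37 (adjusted p = 0.204), and the calls of Ppard, Ppargc1b, Slc22a5, Cpt2, Crat and Hsd17b10 were lost as well.

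In Mu-RE muscle 13 genes were higher on TRF. Eci2 ran from 4.28 to 5.33 (median 4.78) on TRF and from 3.84 to 4.92 (median 4.26) on ALF, a difference of 0.43 (SE 0.08, adjusted p = 0.00024). Eci1 was 0.35 higher (SE 0.07), Mlycd 0.35 (SE 0.13), Etfa 0.30 (SE 0.07), Acadl 0.27 (SE 0.08), Echs1 0.25, Etfb 0.24, Hadhb 0.22, Decr1 0.21 and Hadh 0.13. Acot1 was 1.77 higher in the fit of all genes (SE 0.38, adjusted p = 0.0032). None of the 4 regulators was called, with Ppara at -0.33 (SE 0.19, adjusted p = 0.222), nor Cd36 (0.04, SE 0.09) nor Cpt1b (-0.18, SE 0.18). With the length term 7 genes were called in this genotype, and the calls of Slc27a1, Mlycd, Acadl, Hadh, Hadhb, Decr1 and Etfb were lost. Leaving out 1 animal of each time point gave 3 to 13 calls. Of the markers, 2 of muscle fibres were higher on TRF, and 1 endothelial and 1 fibroblast marker were lower; their part was not tested.

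In KO muscle Fabp3 was higher still on TRF, from 9.33 to 11.44 (median 10.76) against 8.98 to 11.47 (median 10.05) on ALF, with a difference of 0.55 (SE 0.16, adjusted p = 0.0209). Eci2 was 0.28 higher (SE 0.08) and Slc27a1 0.30 (SE 0.10), while Ppara (-0.53, SE 0.17, adjusted p = 0.0342) and Lpl (-0.31, SE 0.10) were lower. With the length term the calls of Fabp3 (0.36, adjusted p = 0.0822), Ppara (-0.32, adjusted p = 0.15) and Lpl (-0.27, adjusted p = 0.0927) were lost, and all 5 calls were lost without animal 1 and also without animal 2 of each time point. In the same comparison the endothelial markers Cdh5 (-0.47, SE 0.15) and Pecam1 (-0.35, SE 0.11) and the oxidative fibre marker Atp2a2 (-0.42, SE 0.11) were lower and the fibroblast marker Col1a1 higher (0.81, SE 0.26), and their part was not tested. Acot1 was 1.46 higher in the fit of all genes (SE 0.26). The difference between the feeding effects in KO and WT was tested directly, with 27.5% of all genes and 8 of the 35 called. KO minus WT was -1.43 for Ppara (SE 0.33, adjusted p = 0.0013), -0.62 for Acacb (SE 0.15), -0.44 for Acss1 (SE 0.17), -0.38 for Hadha (SE 0.11), -0.36 for Lpl (SE 0.13) and -0.28 for Ppard (SE 0.11). It was 0.66 for Fabp3 (SE 0.23) and 0.48 for Acot13 (SE 0.13). With the length term 1 member was called, and none of these 8. The same test between old and WT mice called 0 of the 35, with 2.1% of all genes called and 7 of the 35 at an unadjusted p under 0.05.

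Daily rhythm was fitted per group as a 24 h cosine, whose amplitude is the distance from mean to peak in log2 units and whose rhythm was tested by limma's F test. In WT muscle on TRF 21 of the 35 genes were called rhythmic (60%), against 37.8% of all genes, and in Br-RE muscle at 10 weeks 20 were called, against 29% of all genes. WT muscle at 10 weeks had 5 (5.84%), KO muscle on TRF 2 (6.2%) and Mu-RE muscle on TRF 1 (6.97%). The other 10 groups had 0 of the 35. Of all genes, 0.071% were called in Mu-RE and in KO at 10 weeks, 0.588% in RE-RE at 10 weeks, 0% in Mu-RE and KO at 26 weeks, 0.76% in RE-RE, 0.69% in Br-RE and 1.04% in WT at 26 weeks, and in old mice 5.71% on TRF and 1.41% on ALF. At an unadjusted p under 0.05 they held 0 to 13 of the 35.

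On TRF most rhythmic genes of WT muscle had fitted peaks in the same part of the day. Of the 21 rhythmic genes 15 peaked between ZT 9 and ZT 15 (71.4%), a window chosen after the peaks were seen, against 31.5% of all rhythmic genes of that group. Hadhb averaged 5.61, 5.63, 5.80, 6.15, 6.06 and 5.93 at ZT 0, 4, 8, 12, 16 and 20 on TRF, against 5.72, 5.72, 5.93, 5.48, 6.10 and 5.56 on ALF in WT mice of the same age. On TRF it was high from ZT 12 on and low around ZT 0, and on ALF it followed no such course. Its amplitude was 0.28 on TRF (SE 0.04, peak ZT 14.2, adjusted p = 7.79e-05) and 0.06 on ALF (SE 0.11, adjusted p = 0.9998).

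Decr1 (amplitude 0.29, SE 0.05, peak ZT 13.8), Eci2 (0.31, SE 0.06, ZT 13.3), Acaa2 (0.25, SE 0.06, ZT 13.7), Acat1 (0.22, SE 0.04, ZT 14.6), Acadm (0.21, SE 0.04, ZT 13.5), Etfdh (0.21, SE 0.04, ZT 13.8), Etfa (0.20, SE 0.05, ZT 13.8) and Hadha (0.18, SE 0.04, ZT 14) had fitted peaks between ZT 13.3 and ZT 14.6. These genes act at different steps of the cycle, from the first dehydrogenation to thiolysis and electron transfer. Differences in peak time between genes were not tested. Slc27a1 peaked at ZT 8.6, Acot2 at ZT 10.1, Mlycd at ZT 10.8, Acsl1 at ZT 11.1 and Slc22a5 at ZT 11.3, the last with an amplitude of 0.29 (SE 0.05, adjusted p = 0.00025). Mlycd averaged 4.69, 4.79, 5.18, 5.64, 4.92 and 4.59 from ZT 0 to ZT 20, with its high at ZT 12, an amplitude of 0.46 (SE 0.10) and adjusted p = 0.00266. Its counterpart Acacb peaked at ZT 3.3 (amplitude 0.20, SE 0.06, adjusted p = 0.0417), a call that was lost with the length term and without any 1 of the 4 animals of each time point.

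The coactivators peaked at other times. Ppargc1a averaged 2.56, 2.61, 2.38, 2.53, 3.55 and 2.89 at ZT 0 to ZT 20 in WT muscle on TRF, a single high at ZT 16 that was carried by a wide spread (SD 0.82, n = 4). Its fitted peak was ZT 17.6 with an amplitude of 0.44 (SE 0.13, adjusted p = 0.03). Ppargc1b averaged 1.09, 1.45, 1.63, 1.49, 0.56 and 0.95, highest at ZT 8 and lowest where Ppargc1a was highest, with a fitted peak at ZT 6.8 and an amplitude of 0.45 (SE 0.09, adjusted p = 0.00111). Ppard peaked at ZT 0.4 (amplitude 0.23, SE 0.05) and Slc27a4 at ZT 21.6 (0.25, SE 0.06), both outside ZT 9 to ZT 15. Ppara was not called (amplitude 0.33, SE 0.21, adjusted p = 0.444), nor were Cd36 (0.15, SE 0.06, adjusted p = 0.128) and Cpt1b (0.28, SE 0.16, adjusted p = 0.401).

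**Figure D4:**
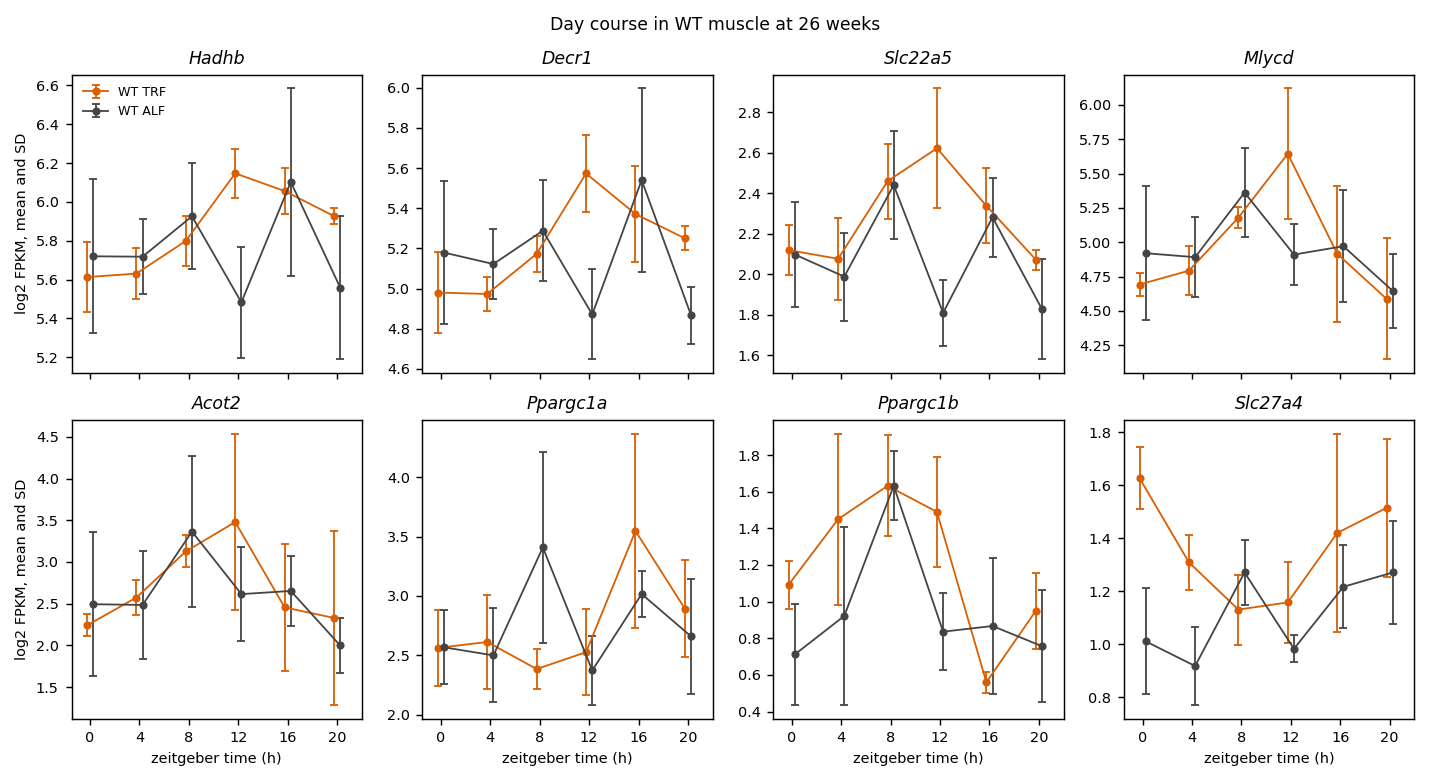
Mean log2 FPKM with SD by zeitgeber time in WT muscle of 26 weeks on TRF and on ALF for 8 genes (3 to 4 mice per point). On TRF Hadhb, Decr1, Slc22a5 and Mlycd are highest at ZT 12, Ppargc1a is highest at ZT 16 and Ppargc1b lowest there.

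Rhythms were also compared between groups, and 0 of the 35 genes were called in any of 10 comparisons, with 2 to 7 of them at an unadjusted p under 0.05. For TRF against ALF in WT muscle 3.92% of all genes were called, and Slc22a5 (adjusted p = 0.237), Decr1 (0.247), Mlycd (0.252) and Hadhb (0.319) did not pass. A rhythm called on TRF and not on ALF is therefore not shown to differ between the feeding schedules. Within old mice on TRF 0 of the 35 were called, and Slc22a5, for example, had an amplitude of 0.18 there (SE 0.05, peak ZT 9.1, adjusted p = 0.11).

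In WT muscle at 10 weeks the 5 rhythmic genes were Mlycd (amplitude 0.33, SE 0.08, peak ZT 5.9), Cd36 (0.26, SE 0.07, ZT 3.1), Slc27a1 (0.22, SE 0.05, ZT 6.1), Acads (0.19, SE 0.04, ZT 4.6) and Slc22a5 (0.16, SE 0.04, ZT 8.8). All 5 peaked before ZT 9. Cd36 averaged 6.71, 6.66, 6.79, 6.35, 6.14 and 6.65 from ZT 0 to ZT 20, lowest at ZT 16. Without WT mouse 1, the calls of Cd36 (adjusted p = 0.0511) and Slc22a5 (0.0587) were lost and 3 remained. With 1 animal of each time point left out in turn, 0 to 2 genes were called. Acot2 had a larger amplitude of 0.69 (SE 0.19, peak ZT 5.9) that was not called (adjusted p = 0.067).

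Br-RE muscle at 10 weeks, where Bmal1 is back in brain and not in muscle, had a rhythm of Ppara that no other group showed at the threshold. Ppara averaged 0.01, -0.81, -0.08, 1.36, 1.78 and 0.95 from ZT 0 to ZT 20, low at ZT 4 and high at ZT 16. The amplitude was 1.25 (SE 0.15, adjusted p = 0.000163), a 5.69-fold span from trough to peak, with the peak at ZT 15.7. Ppard followed with 2.47, 1.98, 2.02, 2.57, 2.99 and 2.62, an amplitude of 0.47 (SE 0.07, adjusted p = 0.00107), peaking at ZT 17.2. Acacb (0.36, SE 0.07, ZT 15.7), Acadvl (0.34, SE 0.09, ZT 14) and Slc27a4 (0.31, SE 0.06, ZT 17.7) peaked after ZT 12 as well, while Acot2 peaked at ZT 9.4 (0.54, SE 0.14), Fabp3 at ZT 7.6 (0.21, SE 0.05) and Slc22a5 at ZT 7.9 (0.21, SE 0.05).

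The slope of value on gene length moved with time of day in these libraries, from a median of -0.061 at ZT 4 to 0.031 at ZT 16 (log2 FPKM per doubling of exon length). With that slope as a term, 2 of the 20 genes called in Br-RE at 10 weeks were still called, Slc22a5 and Acot2, and Ppara and Ppard were not. In WT muscle on TRF the slope ran between -0.031 at ZT 12 and 0.062 at ZT 8, and 18 genes were called with the term, 16 of the 21 among them. The calls of Acacb, Acadvl, Acot2, Acot13 and Etfa were lost. Leaving out 1 animal of each time point gave 9 to 17 calls in WT on TRF and 5 to 16 in Br-RE at 10 weeks. The difference in rhythm between Br-RE and KO at 10 weeks called 0 of the 35 genes and 0.913% of all genes. In Br-RE muscle at 26 weeks Ppara had an amplitude of 0.70 (SE 0.26, peak ZT 13.2) that was not called (adjusted p = 0.285).

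**Figure D5:**
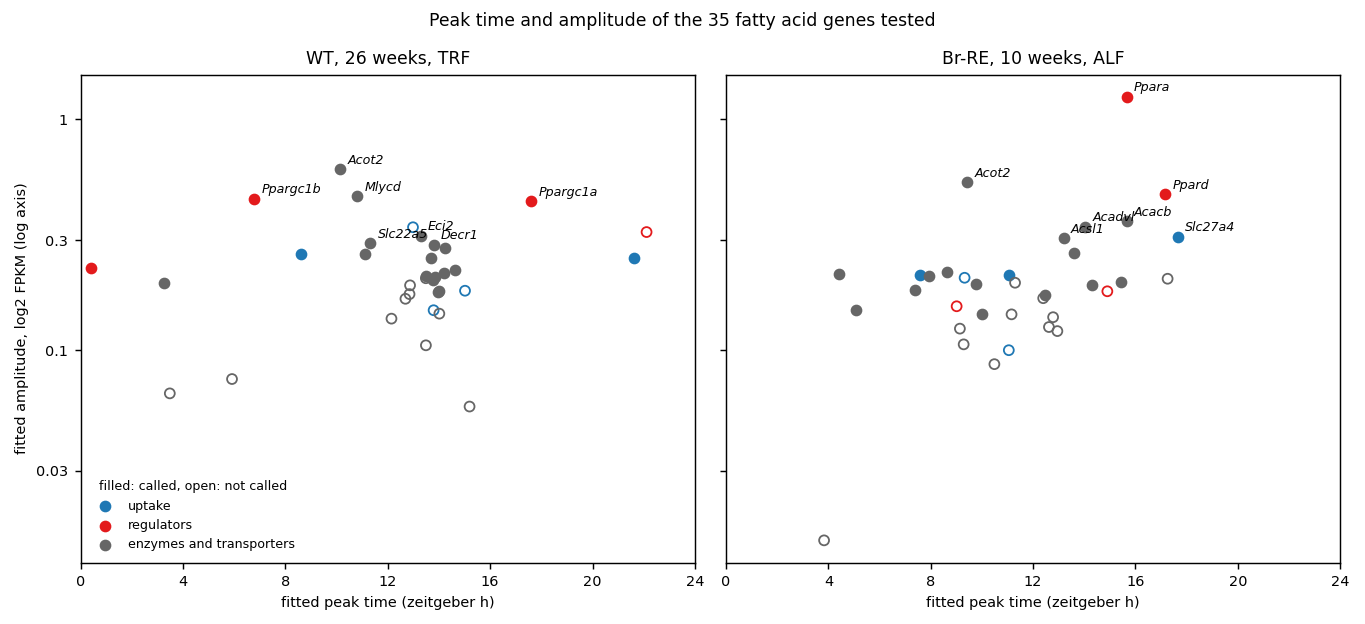
Fitted peak time (h) against fitted amplitude (log2 FPKM, log axis) for the 35 genes tested in WT muscle on TRF and in Br-RE muscle at 10 weeks, with filled points for rhythms called. In WT on TRF 15 of 21 called genes lie between ZT 9 and ZT 15, against 31.5% of all rhythmic genes of that group. That window was chosen after the peaks were seen. In Br-RE Ppara stands highest at an amplitude of 1.25.

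In KO muscle on TRF, where 6.2% of all genes were called, the 2 rhythmic genes were Ppargc1a and Cd36. Ppargc1a averaged 1.58, 2.07, 2.14, 2.51, 3.03 and 2.25 from ZT 0 to ZT 20, highest at ZT 16 as in WT muscle on TRF, with an amplitude of 0.54 (SE 0.11, peak ZT 14.3, adjusted p = 0.0218). Cd36 averaged 6.75, 6.83, 6.99, 7.28, 7.63 and 7.20, with an amplitude of 0.40 (SE 0.10, peak ZT 15.1, adjusted p = 0.042). In Mu-RE muscle on TRF Slc22a5 was the 1 gene called, at an amplitude of 0.23 (SE 0.05, peak ZT 10.7, adjusted p = 0.0314), close in time to its ZT 11.3 in WT muscle on TRF. With 1 animal of each time point left out, Mu-RE muscle on TRF had 0 to 1 calls. KO muscle on TRF then had 0, so the calls of Ppargc1a and Cd36 were lost in each such run. Slc22a5 was called in WT on TRF, Mu-RE on TRF and Br-RE at 10 weeks, and in WT at 10 weeks only with WT mouse 1, with fitted peaks from ZT 7.9 to ZT 11.3.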

How the data were processed

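RNA of whole tibialis anterior was extracted with Qiazol and the miRNeasy Mini Kit and sequenced as 150 bp pairs, per the labels' protocols. The submitters' processing notes name GRCm38 and the tools limma 3.44.1, edgeR 3.30.0, featureCounts 1.6.2, HISAT2 2.1.0, Trim Galore 0.5.0 and FastQC 0.11.8. The deposited values are log2 FPKM, made by the authors with 0.01 FPKM added. In these deposited values the means of the sexes were equal gene by gene, in Br-RE and RE-RE mice of each age separately and in all other groups together, so sexes were not compared; this step was not given in the sources used here. In the median library 93.9% of low values came out whole in reads to within 0.1. Groups were taken from the labels, and p-values measure the spread between these samples.

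limma 3.58.1 in R 4.3.3 (trend and robust options) fitted a level and a 24 h cosine and sine per group. A sex term was shared by the groups of a fit. Fits covered the 9862 genes with a mean of at least 1 FPKM, with Benjamini-Hochberg adjustment and a threshold of 0.05. The steps were tested on simulated data. The members and all gene and marker lists were chosen with earlier results of these data known. Named in full were the called genes with the 6 largest differences or amplitudes, the 4 regulators, Cpt1b and Cd36. Alternatives left out the filter, the sex term, the trend options or animals, added 1 FPKM, a gene-length slope or a block for animal number, used the spread of all 15 groups or time as a factor, and, chosen after seeing the data, scaled libraries by the median. Exon lengths were from GENCODE M21.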

Additional observations from a re-analysis of the deposited data

Results flagged for a closer look

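The effect of KO differed between 26 and 10 weeks by a direct test for 7 of the 35 genes. Of all genes 18.8% were called, a share close to that of the 35. The difference, 26 minus 10 weeks in log2 FPKM, was 1.587 for Ppara, 0.758 for Ppargc1a, 0.465 for Acacb, 0.446 for Acsl1, 0.434 for Hadha, 0.418 for Lpl and 0.219 for Slc27a4. With the gene-length term the calls of Acsl1 (0.324), Acacb (0.286) and Slc27a4 (0.17) were lost, at a limma adjusted p of 0.0807, 0.0595 and 0.0835, and Ppara gave 1.309 (adjusted p = 0.000751).

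The effect of TRF differed between KO and WT mice by a direct test for 8 of the 35 genes. Of all genes 27.5% were called, a larger share than among the 35. The difference, KO minus WT, was -1.429 for Ppara, -0.622 for Acacb, -0.438 for Acss1, -0.375 for Hadha, -0.36 for Lpl, -0.284 for Ppard, 0.478 for Acot13 and 0.662 for Fabp3. With the gene-length term none of these 8 was called, and Ppara gave -0.779 (limma, adjusted p = 0.0811).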

How the results depend on the processing

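Counts below are of the 35 genes. No called difference changed sign under any alternative run. With a term for gene length, level calls were 8 in old against WT mice, 6 at 26 against 10 weeks, 7 for TRF in Mu-RE and 3 for TRF in KO; rhythm calls were 2 in Br-RE at 10 weeks, 2 in Mu-RE on TRF, 5 in KO on TRF and 1 in old mice on TRF; the feeding effect differed between KO and WT for 1 gene and between old and WT mice for 2. With the spread of all 15 groups, TRF in KO gave 8 level calls, and rhythms gave 1 in WT at 10 weeks, 8 in Br-RE at 10 weeks, 1 in Br-RE at 26 weeks, 2 in Mu-RE on TRF, 11 in KO on TRF and 1 in old mice on ALF; rhythm differed for 1 gene between RE-RE and Br-RE at 10 weeks and 1 between TRF and ALF in KO, and the feeding effect for 1 between old and WT mice. With time as a factor, Mu-RE on TRF gave 7 rhythms and KO on TRF 1, and 7 differed between TRF and ALF in Mu-RE. Without the sex term Mu-RE on TRF gave 2 and KO on TRF 1, and without the filter KO on TRF gave 1. Without WT mouse 1, rhythm calls in WT at 10 weeks were 3. The cause was not tested.

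Leaving out 1 animal of each time point in turn gave level calls of 18 to 21 and 19 to 22 for KO against WT at 10 and 26 weeks, 16 to 18 and 12 for Mu-RE against KO, 10 to 13 and 12 to 14 for RE-RE against Br-RE, 1 to 4 for old against WT, 4 to 10 for 26 against 10 weeks, and 8 to 13, 3 to 13, 0 to 8 and 0 for TRF in mice that were WT, Mu-RE, KO and old. Counts of all genes moved as well. Of all genes, 3318 to 3647 and 3353 to 4455 were called for KO against WT at 10 and 26 weeks. For TRF, 1976 to 3577 of all genes were called in WT, 275 to 1142 in Mu-RE, 90 to 1504 in KO and 0 to 88 in old mice. Single calls between KO and WT were lost without at least 1 animal for Acacb, Acsl1, Acss1, Crat, Echs1, Etfdh, Hsd17b10, Lpl and Ppara at 10 weeks, and for Acads, Acss1, Decr1, Echs1, Lpl, Mlycd, Slc22a5 and Slc27a1 at 26 weeks, each in the same direction. Rhythm calls were 0 to 2 in WT at 10 weeks, 5 to 16 in Br-RE at 10 weeks, 9 to 17 in WT on TRF, 0 to 1 in Mu-RE on TRF, 0 in KO on TRF and 0 to 1 in old mice on ALF. Among all genes, rhythm calls were 184 to 278 in WT and 533 to 2850 in Br-RE at 10 weeks. On TRF they were 1938 to 3091 in WT, 134 to 529 in Mu-RE and 1 to 75 in KO. Rhythm differed between Br-RE and KO at 10 weeks for 0 to 4 genes. The KO effect differed with age for 3 to 5 and the feeding effect between KO and WT for 1 to 8.

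Samples were not treated as paired by animal number. Same-numbered KO and WT mice at 10 weeks had a median correlation of 0.133 over 22 pairs, with 14 above 0.1 and 3 best with their own number. In other comparisons the median was as low as -0.027 (RE-RE against Br-RE, 26 weeks). Between Mu-RE and KO at 10 weeks 6 of 23 mice were best with their own number, so a link by number is not excluded. With the number as a replicate block, 24 and 22 genes were called for KO against WT and 7 for 26 against 10 weeks, the 1 level count that it moved by over 1.5 times.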
